A study of Mus musculus with 9 samples.

Results

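The genes described here are 10 genes of the hypoxia-inducible factor (HIF) pathway, chosen by gene symbol among the 55401 genes counted in 9 mouse livers. They comprise 3 HIF subunits (Hif1a, Epas1 and Arnt), 2 oxygen sensors (Egln1 and Egln3) and 5 target genes (Vegfa, Car9, Ndrg1, Adm and Bnip3). All 10 had a row in the count table, and all 10 were among the 15717 genes that passed the filter on low counts. RNA sequencing was performed on whole livers of wild-type female mice obtained at 6 weeks of age, 3 mice per group. Healthy livers received no treatment and served as the baseline. Livers with hepatocellular carcinoma (HCC) came from mice whose hepatocytes had been given sleeping beauty transposon plasmids by hydrodynamic tail vein injection, which encode myristoylated AKT under the EF1α promoter and Nras-v12 under the Caggs promoter (RAS/AKT). An AAV8 vector followed 1 week after the oncogenes, either with miR-22 under a CMV promoter (miR-22-treated HCC) or empty of it (AAV blank control, untreated HCC). Tumor-bearing livers were taken 5 weeks after the oncogenes and 4 weeks after the vector. The strain is labelled C57BL/6, but the growth protocol and the methods give FVB/N. The growth protocol also lists an N90-β-catenin plasmid, whereas the design and the methods name RAS/AKT for these livers. Whole liver holds tumor and non-tumor tissue, and in bulk RNA fewer cells of a type and less RNA per cell cannot be told apart.

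HIF is a transcription factor made of an oxygen-regulated alpha subunit, HIF1α (Hif1a) or HIF2α (Epas1), and the constant partner ARNT. When oxygen is present, prolyl hydroxylases of the EGLN family mark the alpha subunit for recognition by VHL and destruction by the proteasome, so that HIF activity is set mainly at the protein level and mRNA levels need not report it. When oxygen is scarce, the dimer binds short DNA cores and switches on genes for angiogenesis, glucose use, pH control and mitochondrial turnover, among them Egln3, which then acts as feedback.

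Libraries held 16664659 to 23908392 counts. The TMM scaling factors were lowest in the healthy group (0.865 to 0.872) and highest in the untreated one (1.12 to 1.22), with the treated one between (0.942 to 1.03). Levels below are counts scaled by TMM to a library of 1000000 counts (CPM). As a check of the labels, Akt1 had 105 ± 2.96 CPM (mean ± SD, n = 3 here and below) in healthy livers, 1486 ± 275 in untreated HCC and 858 ± 223 in miR-22-treated HCC, and Nras had 28.6 ± 1.51, 69.9 ± 7.02 and 54.6 ± 1.09. Albumin, the main secreted protein of hepatocytes, was abundant in each library (42200 to 103000 CPM). Within groups, the smallest chi-square between 2 livers was 6.15 for each degree of freedom, so no pair was a repeat of the same library. Mir22, the precursor of miR-22, had 0 counts in all libraries, and its host transcript Mir22hg had 61.9 ± 7.79, 18.1 ± 4.2 and 30.8 ± 2.55 CPM in healthy livers, untreated HCC and miR-22-treated HCC, so the vector's product was not measured here.

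Since miR-22 was the agent delivered, its mature sequence and its seed matches in the members are shown first. miR-22-3p (GRCm38.p6, chr11:75463772-75463793, + strand, RefSeq) is printed with its seed, bases 2 to 8, in capitals. Matches were sought as GCAGCT (6mer) or GGCAGCT (7mer) on the transcript strand of the 3′ untranslated region (UTR) of each gene's canonical transcript on GRCm39 (GENCODE M39, 20635 UTRs), and are printed in capitals.
miR-22-3p: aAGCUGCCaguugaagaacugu
Hif1a 6mer: ttacataaagatgcgtGCAGCTttc
Bnip3 7mer: gagcagtggagtacaGGCAGCTgaa
The Hif1a match lies at chr12:73995879-73995903 (+ strand), at base 3418 of a UTR of 3844 bases, and no 7mer was in that UTR. A 6mer was present in 69.8% and a 7mer in 40.7% of the 2085 UTRs within 20% of its length. For these shares of UTRs, GCAGCTA was also counted as a 7mer. Bnip3 had the only 7mer among the members (chr7:138491397-138491421, − strand) together with 2 further 6mers. A 7mer, with GCAGCTA again counted, was present in 32.9% of the UTRs of a length like that of Bnip3. The share with GGCAGCT alone was not counted. The other 8 members held no such match. A match is a description of letters and not a shown binding site.

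Hif1a (chr12:73948149-73996321, + strand; all gene positions are GRCm39) encodes HIF1α. It had 66.8, 72.3 and 68.7 CPM in the 3 healthy livers, 113, 106 and 91.6 in untreated HCC and 96.8, 97.4 and 91.7 in miR-22-treated HCC. Each HCC liver lay above each healthy liver, and treated and untreated HCC overlapped. Untreated HCC differed from healthy livers by 0.58 on the log2 scale (SE 0.0919, adjusted p = 0.00015 by edgeR's quasi-likelihood test with Benjamini-Hochberg adjustment). A gene was called only at an adjusted p under 0.05 together with a fold change over 1.5, which is 0.585 on the log2 scale, so Hif1a passed the first threshold and stood just under the second. It passed both in 8 of 18 alternative settings, with 0.59 to 1.01 on the log2 scale. With miR-22, the difference from untreated HCC was −0.12 on the log2 scale (SE 0.0912, adjusted p = 0.367), with a 95% interval from −0.32 to 0.08. When libraries were scaled by their totals alone, it was −0.36, under the fold threshold, and −0.13 relative to the median of all genes. miR-22-treated HCC differed from healthy livers by 0.46 (adjusted p = 0.002), under the fold threshold.

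Epas1 (chr17:87061087-87140838, + strand) encodes HIF2α, which in liver is known in endothelial cells and hepatocytes. It had 187, 208 and 198 CPM in healthy livers, 143, 141 and 148 in untreated HCC and 162, 201 and 175 in miR-22-treated HCC. Untreated HCC lay below both other groups without overlap, while treated and healthy livers overlapped. The log2 fold change was −0.46 (SE 0.0981, adjusted p = 0.00152) in untreated HCC against healthy livers and 0.32 (SE 0.098, adjusted p = 0.0344) in miR-22-treated against untreated HCC. Both were past the threshold for p and short of the fold threshold. When libraries were scaled by their totals alone, the first was −0.04 (adjusted p = 0.743) and the second 0.08 (adjusted p = 0.529). Treated HCC against healthy livers gave −0.14 (adjusted p = 0.282), which turned to 0.04 with totals alone. Arnt (chr3:95341365-95404551, + strand), the shared partner, had 74.0 ± 4.6 CPM in healthy livers, 56.7 ± 2.65 in untreated HCC and 58.7 ± 2.82 in treated HCC. Its log2 fold change was −0.38 (adjusted p = 0.00156) in untreated HCC against healthy livers, which turned to 0.04 with library totals alone, and 0.05 (adjusted p = 0.708) with miR-22, which turned to −0.19. Scaling by totals moved the median log2 fold change of all genes by 0.422, −0.235 and 0.188, to 0.43, −0.23 and 0.21, in the 3 comparisons (untreated HCC against healthy, treated against untreated, treated against healthy). Relative to that median, Epas1 and Arnt differed by −0.47 and −0.39 in untreated HCC against healthy livers.

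The ratio of Epas1 to Hif1a within a library does not depend on scaling between libraries. Per kb of canonical transcript, Epas1 stood at 3.48, 3.58 and 3.57 times the level of Hif1a in healthy livers, 1.57, 1.65 and 2 times in untreated HCC and 2.08, 2.56 and 2.37 times in miR-22-treated HCC. The 3 groups did not overlap, with Epas1 above Hif1a in each liver. For each pair of groups the exact permutation test gave p = 0.1, two-sided, which is the smallest that 3 against 3 livers allow.

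Of the 3 subunits, 0 were called in the 3 comparisons by the edgeR fit with TMM scaling, by DESeq2's Wald test or by limma-trend. The edgeR fit called 40.8%, 13.8% and 24.0% of all tested genes in these comparisons. Hif1a was called in other settings, those 8 in untreated HCC against healthy livers and, with library totals alone, also in treated HCC against healthy livers (0.65). At an unadjusted p under 0.05 there were 3 subunits in untreated HCC against healthy livers, 1 in treated against untreated HCC and 2 in treated HCC against healthy livers. The share of all genes at that unadjusted p was not counted, here or for the lists below.

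Among the oxygen sensors, Egln3 changed and Egln1 was not called. Egln1 (chr8:125635308-125676865, − strand) encodes PHD2, the main HIF prolyl hydroxylase. It had 43.1 ± 3.32 CPM in healthy livers, 47.9 ± 1.49 in untreated HCC and 45.4 ± 1.12 in treated HCC. Its log2 fold changes were 0.15 (adjusted p = 0.138) and −0.08 (adjusted p = 0.548) in the first 2 comparisons. Egln3 (chr12:54225767-54250673, − strand) encodes PHD3, a hydroxylase that is itself a HIF target. It had 11.5, 9.7 and 11.2 CPM in healthy livers, 21.4, 20.9 and 17.4 in untreated HCC and 12.6, 10.01 and 11.0 in miR-22-treated HCC. Each untreated HCC liver lay above the other 6, and the treated livers overlapped the healthy ones. Egln3 rose in untreated HCC against healthy livers (log2 fold change 0.88, SE 0.133, adjusted p = 0.000111). It was lower in miR-22-treated than in untreated HCC (−0.82, SE 0.133, adjusted p = 0.0012). Treated HCC against healthy livers gave 0.05 (95% interval −0.24 to 0.35, adjusted p = 0.792).

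**Figure D1:**
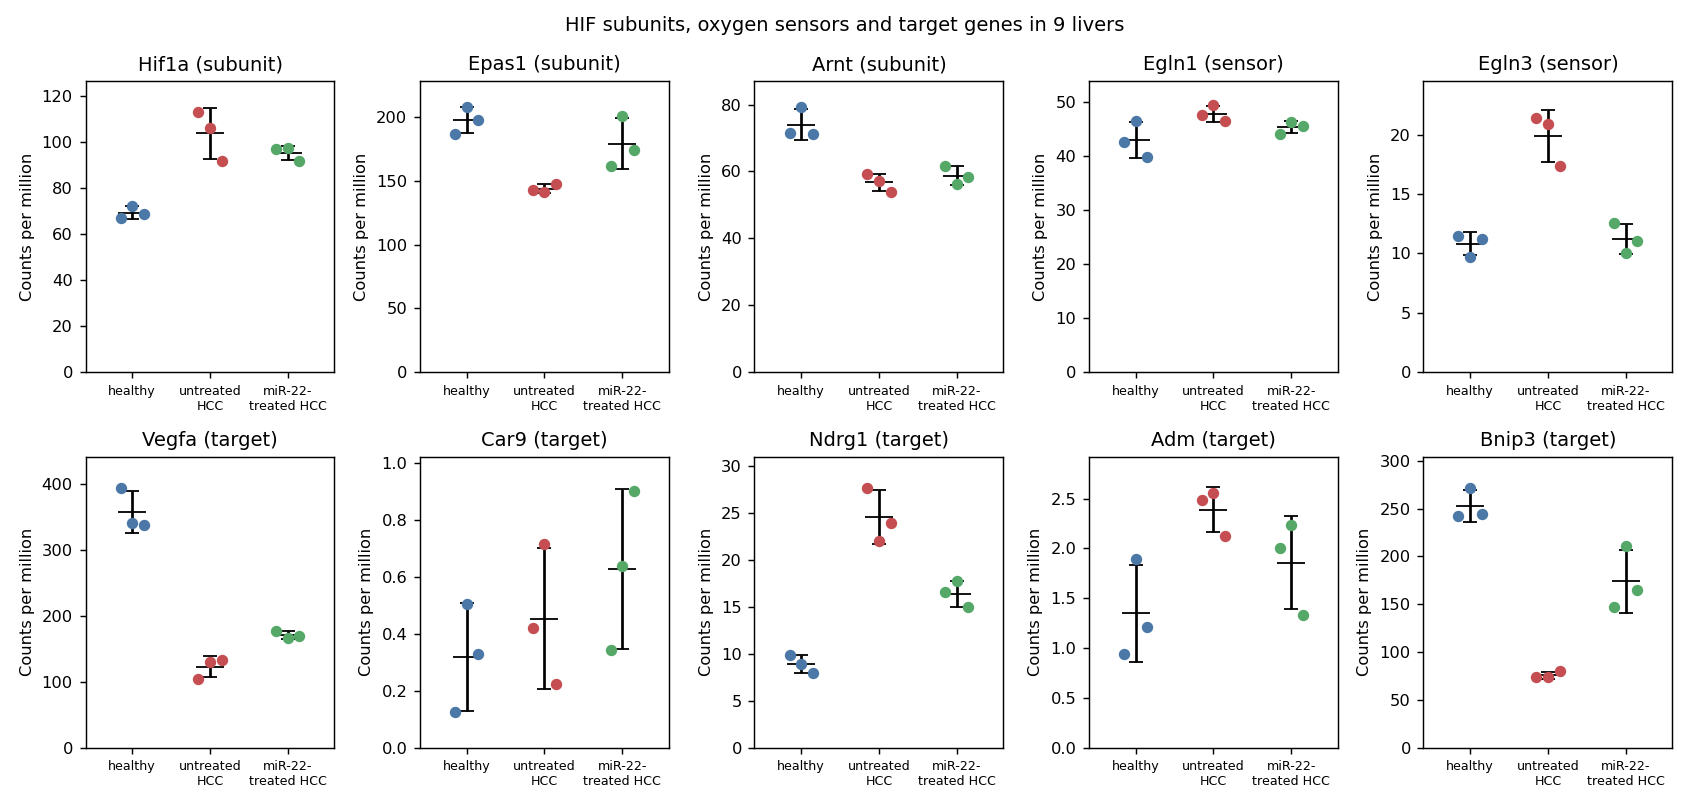
Level in CPM (y axis, from 0) of the 10 genes in 9 livers. Points are single livers, and bars are the mean and SD of 3 livers per group. Egln3 and Ndrg1 are highest in untreated HCC, Vegfa and Bnip3 are lowest there, and Car9 overlaps between all groups.

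The 5 target genes did not move in 1 direction. In untreated HCC against healthy livers, Ndrg1 and Adm rose, Vegfa and Bnip3 fell, and Car9 was not called.

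Vegfa (chr17:46327919-46343309, − strand) encodes the main angiogenic growth factor and had 103 ± 9.17, 35.5 ± 4.57 and 49.5 ± 1.68 CPM per kb in healthy livers, untreated HCC and treated HCC. It had the highest level per kb of the 10 genes in healthy livers and untreated HCC, while in treated HCC it overlapped Bnip3 (47.7 ± 8.98). It had 395, 341 and 338 CPM in healthy livers, 105, 131 and 134 in untreated HCC and 178, 167 and 170 in miR-22-treated HCC. The 3 groups did not overlap. Vegfa fell by 1.54 on the log2 scale in untreated HCC against healthy livers (SE 0.114, adjusted p = 3.08e-07). With miR-22 the difference from untreated HCC was 0.48 (SE 0.112, adjusted p = 0.00878), short of the fold threshold. Treated HCC stayed lower than healthy livers (−1.06, SE 0.112, adjusted p = 1.75e-05).

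Bnip3 (chr7:138490690-138511253, − strand) encodes a mitophagy receptor of the outer mitochondrial membrane. It had 242, 272 and 245 CPM in healthy livers, 73.7, 74.0 and 79.8 in untreated HCC and 147, 211 and 164 in miR-22-treated HCC. The 3 groups did not overlap, and the treated livers spread more than the others. Bnip3 fell by 1.74 in untreated HCC against healthy livers (SE 0.126, adjusted p = 2.78e-07) and rose by 1.2 with miR-22 (SE 0.125, adjusted p = 0.00011). Treated HCC against healthy livers gave −0.54 (SE 0.123, adjusted p = 0.00449), under the fold threshold, and passed it without healthy replicate 1 (−0.59) or without miR-22-treated HCC replicate 3 (−0.7).

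Ndrg1 (chr15:66801166-66841835, − strand) encodes a stress-induced cytoplasmic protein long used as a hypoxia marker. It had 9.93, 8.88 and 7.97 CPM in healthy livers, 27.7, 22.1 and 23.9 in untreated HCC and 16.6, 17.7 and 14.98 in miR-22-treated HCC. The 3 groups did not overlap. Ndrg1 rose in untreated HCC against healthy livers (log2 fold change 1.46, SE 0.131, adjusted p = 1.44e-06). With miR-22 the difference was −0.58 (SE 0.125, adjusted p = 0.0058), just under the fold threshold, and it passed in 14 of 18 alternative settings (−0.59 to −0.82). Treated HCC was higher than healthy livers (0.88, SE 0.133, adjusted p = 0.000292).

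Adm (chr7:110226858-110229027, + strand) encodes adrenomedullin, a vasodilator peptide, and had low counts. Raw counts were 15, 30 and 22 in healthy livers, 53, 57 and 57 in untreated HCC and 35, 35 and 28 in miR-22-treated HCC. In CPM, each untreated HCC liver (2.13 to 2.55) lay above each healthy liver (0.943 to 1.89), and the treated livers (1.33 to 2.23) overlapped both. Adm rose in untreated HCC against healthy livers (log2 fold change 0.82, SE 0.321, adjusted p = 0.0435), and this call was lost in 9 of 18 alternative settings, where the adjusted p reached 0.15. The difference with miR-22 was −0.37 (95% interval −1.04 to 0.3, adjusted p = 0.424). Car9 (chr4:43506966-43513729, + strand) encodes a carbonic anhydrase of the cell surface and is a classic hypoxia marker. It had 2, 8 and 6 raw counts in healthy livers, 9, 16 and 6 in untreated HCC and 6, 10 and 19 in treated HCC. No difference was detectable at this depth (log2 fold change 0.48, SE 0.637, 95% interval −0.91 to 1.86, adjusted p = 0.547 in untreated HCC against healthy livers, and 0.5, adjusted p = 0.578 with miR-22). The library kit did not keep strand. Car9 shares 670 exonic bases with the antisense gene Gm12454 (0 to 18 counts) and Adm shares 520 with the antisense gene Gm72687, which was not counted, so reads within these stretches cannot be assigned to 1 gene of the pair.

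**Figure D2:**
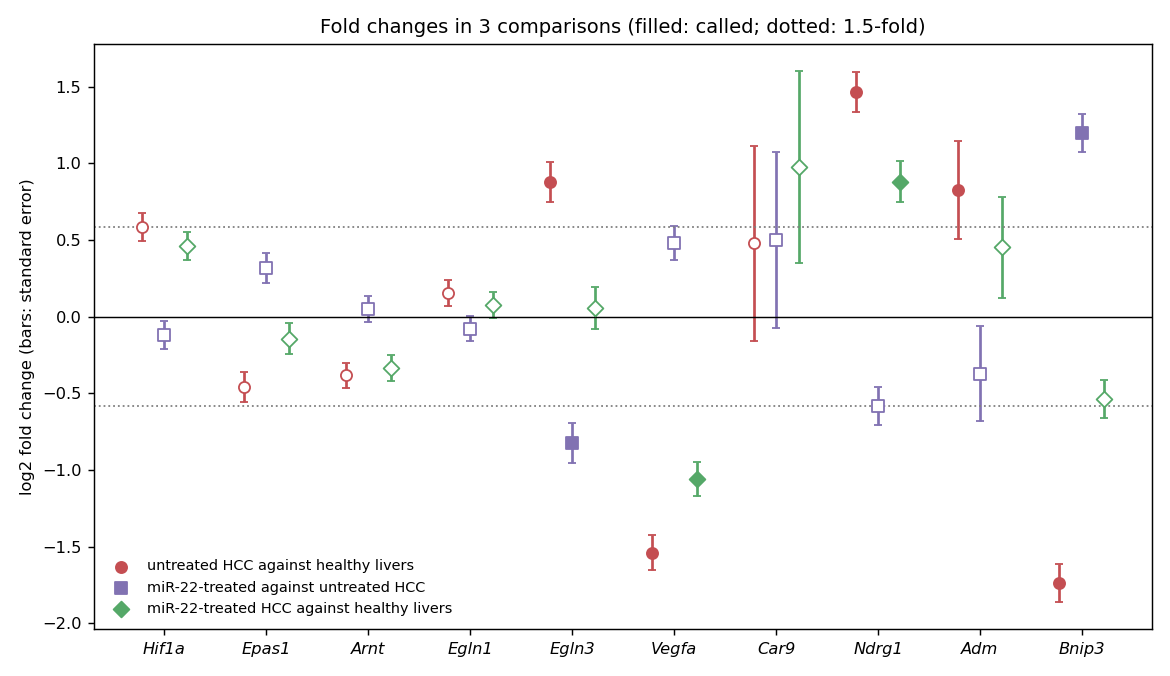
Log2 fold change (y axis) of the 10 genes in 3 comparisons, with standard errors as bars. Filled symbols passed both thresholds and dotted lines mark a 1.5-fold change. Egln3 and Bnip3 are filled in both of the first 2 comparisons, with opposite signs, and Hif1a and Ndrg1 each have an open symbol on a dotted line.

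In untreated HCC against healthy livers, 5 of the 10 members were called, against 40.8% of all tested genes. Of these, 3 rose (22.7% of all genes) and 2 fell (18.1%). The libraries of 8 members did not overlap, against 65.3% of all genes. In miR-22-treated against untreated HCC, 2 members were called, against 13.8%: Bnip3 rose (8.32% of all genes did) and Egln3 fell (5.47%). The libraries of 6 members did not overlap, against 39.3%. In miR-22-treated HCC against healthy livers, 2 members were called, against 24.0%: Ndrg1 was higher (16.9%) and Vegfa lower (7.05%). The libraries of 5 members did not overlap, against 48.8%. With 10 members, these shares lie near those of all genes. The median log2 fold change of the members was 0.32, −0.01 and 0.06 in the 3 comparisons, beside 0.012, 0.002 and 0.022 over all genes. Scaling by totals alone changed the split of all calls from 3575 higher and 2842 lower to 5986 and 1492 in the first comparison, from 1308 and 859 to 835 and 2164 in the second and from 2664 and 1108 to 3408 and 593 in the third. The comparisons share their groups, so a member high or low in untreated HCC enters 2 of them with opposite signs.

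HIF binds the core ACGTG or GCGTG, and the 250 bases before the start of transcription were searched for both on either strand (RefSeq, GRCm38.p6). Since the core CACGTG reads the same on both strands, it counts 2 times, and it is also the E-box of other factors. Of the 10 members, 8 had a promoter in the table, and Epas1 and Ndrg1 were not among them. Among all 32851 promoters, 38.6% held at least 1 core, 16.7% at least 2 and 2.6% at least 4. The promoters of Bnip3, the member that fell furthest in untreated HCC, and of Egln3 and Adm, which rose there, are shown for comparison with cores in capitals.
Bnip3, chr7:138909507-138909756, − strand: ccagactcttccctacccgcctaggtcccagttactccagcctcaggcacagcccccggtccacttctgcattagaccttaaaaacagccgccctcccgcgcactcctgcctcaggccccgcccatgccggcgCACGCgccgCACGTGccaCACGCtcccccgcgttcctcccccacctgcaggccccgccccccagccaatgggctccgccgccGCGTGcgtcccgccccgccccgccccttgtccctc
Egln3, chr12:54203875-54204124, − strand: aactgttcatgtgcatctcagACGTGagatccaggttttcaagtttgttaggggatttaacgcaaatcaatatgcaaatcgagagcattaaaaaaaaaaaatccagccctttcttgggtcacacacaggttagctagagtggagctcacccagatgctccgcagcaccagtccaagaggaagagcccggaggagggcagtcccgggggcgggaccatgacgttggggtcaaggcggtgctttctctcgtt
Adm, chr7:110627407-110627656, + strand: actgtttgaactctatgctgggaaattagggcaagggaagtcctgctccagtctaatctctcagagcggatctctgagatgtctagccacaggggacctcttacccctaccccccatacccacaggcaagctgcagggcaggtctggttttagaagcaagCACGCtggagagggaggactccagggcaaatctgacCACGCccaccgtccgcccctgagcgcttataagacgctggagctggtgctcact
Bnip3 held 5 cores at 35 to 117 bases before the start, the most of any member, and Hif1a held 3. Egln1 and Adm held 2 each, and Egln3, Arnt and Car9 held 1 each. Vegfa has 2 starts in the table, with 0 cores before the upstream one and 2 cores, at 211 and 218 bases, before the other, which lies inside the gene. In all, 9 promoters of 8 members were searched, and each of the 8 members had at least 1 core. Cores further away were not searched for.

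Other genes of the pathway are given by lists. Among all tested genes, 22.7% rose and 18.1% fell in untreated HCC against healthy livers, and 8.32% rose and 5.47% fell with miR-22, and the counts of the lists stand beside these shares. Among the other HIF subunits and coactivators, 1 of 4 tested genes was called in untreated HCC against healthy livers. Arnt2, a paralog of Arnt known from the nervous system, had 0 counts in the healthy livers and 60 to 103 in untreated HCC, at least 18.1-fold higher against a floor of 3 counts per library. It had 20 to 44 counts in miR-22-treated HCC, which was not called against untreated HCC (−1.06, adjusted p = 0.0589), although DESeq2 and limma each called it. Of 12 tested genes of oxygen sensing and HIF turnover, edgeR, DESeq2 and limma called 0 in each comparison, and 4, 2 and 1 had an unadjusted p under 0.05. In untreated HCC against healthy livers, 3 of them passed the adjusted p and missed only the fold threshold, with libraries that did not overlap: Vhl (log2 fold change 0.43, adjusted p = 0.00659), Rack1 (0.29, adjusted p = 0.0185) and Egln2 (−0.28, adjusted p = 0.0173). With library totals alone, 5 of the 12 were called there, all higher.

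Of 33 other HIF target genes, 16 rose and 4 fell in untreated HCC against healthy livers (median log2 fold change 0.63, beside 22.7% and 18.1% of all genes and a median of 0.012), and 3 rose and 7 fell with miR-22 (median −0.23, beside 8.32% and 5.47% and a median of 0.002). The 4 that fell in untreated HCC were Mxi1, Angptl4, Cxcl12 and Ak4, and the 3 that rose with miR-22 were Angptl4, Cxcl12 and Ak4. With library totals alone, Mxi1 and Angptl4 were no longer called in the first comparison, nor Ak4 in the second, and 10 fell with miR-22. Ddit4, an inhibitor of mTORC1, rose from 4.5 to 53.6 CPM in untreated HCC (log2 fold change 3.57, SE 0.215, adjusted p = 7.05e-08). Lox, which crosslinks collagen, rose from 0.328 to 13.3 (5.34, SE 0.334, adjusted p = 9.25e-08). With miR-22, Angptl4, an inhibitor of lipoprotein lipase, rose from 34.7 to 159 CPM (2.2, SE 0.273, adjusted p = 0.00031), with 79.2, 203 and 195 in the treated livers. Cxcl12, a chemokine, rose from 189 to 372 (0.98, adjusted p = 0.000925).

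Of 21 glycolytic HIF targets, 13 rose and 1 fell in untreated HCC against healthy livers (median 0.74), and 1 rose and 5 fell with miR-22 (median −0.37). The 5 were Pfkp, Aldoa and Pfkfb4, which act on fructose phosphates, with the glucose carrier Slc2a1 and the lactate carrier Slc16a3. Some of these genes were picked by the study for display from the same livers, so their direction is not independent evidence. Pfkp, a phosphofructokinase isoform, rose from 3.96 to 39.1 CPM in untreated HCC (log2 fold change 3.3, SE 0.142, adjusted p = 7.61e-09) and fell to 18.4 with miR-22 (−1.09, SE 0.123, adjusted p = 0.000182). Aldoa, the muscle-type aldolase, fell from 203 to 120 with miR-22 (−0.76, adjusted p = 0.00199). Pdk1, a kinase that inhibits pyruvate dehydrogenase, was the only glycolytic target that fell in untreated HCC (from 123 to 33.7, −1.87, adjusted p = 4.53e-07). It was also the only such target that rose with miR-22 (0.8, adjusted p = 0.00207), the same pair of directions as Bnip3. With library totals alone, 11 glycolytic targets fell with miR-22 and Pdk1 was not called there (0.56).

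Partners of the 5 target genes differed among themselves. Of 9 other VEGF ligands and receptors, 5 rose and 3 fell in untreated HCC. The ligands Vegfb, Vegfc, Vegfd and Pgf were among those that rose, and Kdr and Nrp2 fell along with Nrp1. Flt4, the receptor of lymphatic vessels, rose from 41.4 to 122 CPM (1.57, adjusted p = 4.02e-07), and the coreceptor Nrp1 fell from 128 to 51.5 (−1.31, adjusted p = 1.02e-05). With miR-22, 1 of the 9 was called, Nrp1, which rose to 89.4 (0.79, adjusted p = 0.00276). Of 6 adrenomedullin receptors and related peptides, 3 rose (Adm2, Ramp3 and Ackr3) and 1 fell in untreated HCC. Adm2, a related peptide, had 0 counts in the healthy livers and 26 to 67 in untreated HCC, at least 10.7-fold higher against the floor. Calcrl, the adrenomedullin receptor of endothelium, fell from 23.3 to 11.4 CPM (−1.02, adjusted p = 0.000381) and rose to 18.5 with miR-22 (0.69, adjusted p = 0.0169). With library totals alone, Kdr (−0.58) was not called in untreated HCC against healthy livers. With miR-22, neither Nrp1 (0.56) nor Calcrl (0.44) was then called, and Flt4 and Ramp3 fell.

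Of 11 other mitophagy receptors and adaptors, 1 rose (Fundc1) and 5 fell in untreated HCC, so 6 were called where 40.8% of all genes were. With library totals alone, 2 rose (Fundc1 and Sqstm1) and 0 fell. The 5 that fell with TMM scaling were Optn, Fkbp8, Phb2, Nbr1 and Pink1, the kinase that recruits Parkin to damaged mitochondria. Optn fell from 132 to 72.3 CPM (−0.87, adjusted p = 5.42e-06) and Fkbp8 from 289 to 167 (−0.79, adjusted p = 1.5e-05). With miR-22, 0 of the 11 were called by edgeR, DESeq2 or limma, and 4 had an unadjusted p under 0.05. These 4 also passed the adjusted p and missed only the fold threshold, with log2 fold changes of 0.54 for Optn (adjusted p = 0.00158), 0.48 for Fkbp8 (adjusted p = 0.00371), 0.48 for Pink1 (adjusted p = 0.00677) and 0.36 for Nbr1 (adjusted p = 0.0174). In 6 of the 11, each treated liver lay above each untreated one, beside 39.3% of all genes that did not overlap in either direction. Of 18 other carbonic anhydrases and NDRG genes, 11 were tested, of which 2 rose and 7 fell in untreated HCC and 5 rose with miR-22. Ndrg2, a paralog of Ndrg1, fell from 1547 to 415 CPM (−1.9, adjusted p = 1.9e-06), opposite to Ndrg1, and rose to 894 with miR-22 (1.11, adjusted p = 0.00102). Car5a, the mitochondrial carbonic anhydrase of liver, fell from 162 to 34.4 (−2.23, adjusted p = 1.42e-06) and rose to 81.6 (1.24, adjusted p = 0.00106).

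**Figure D3:**
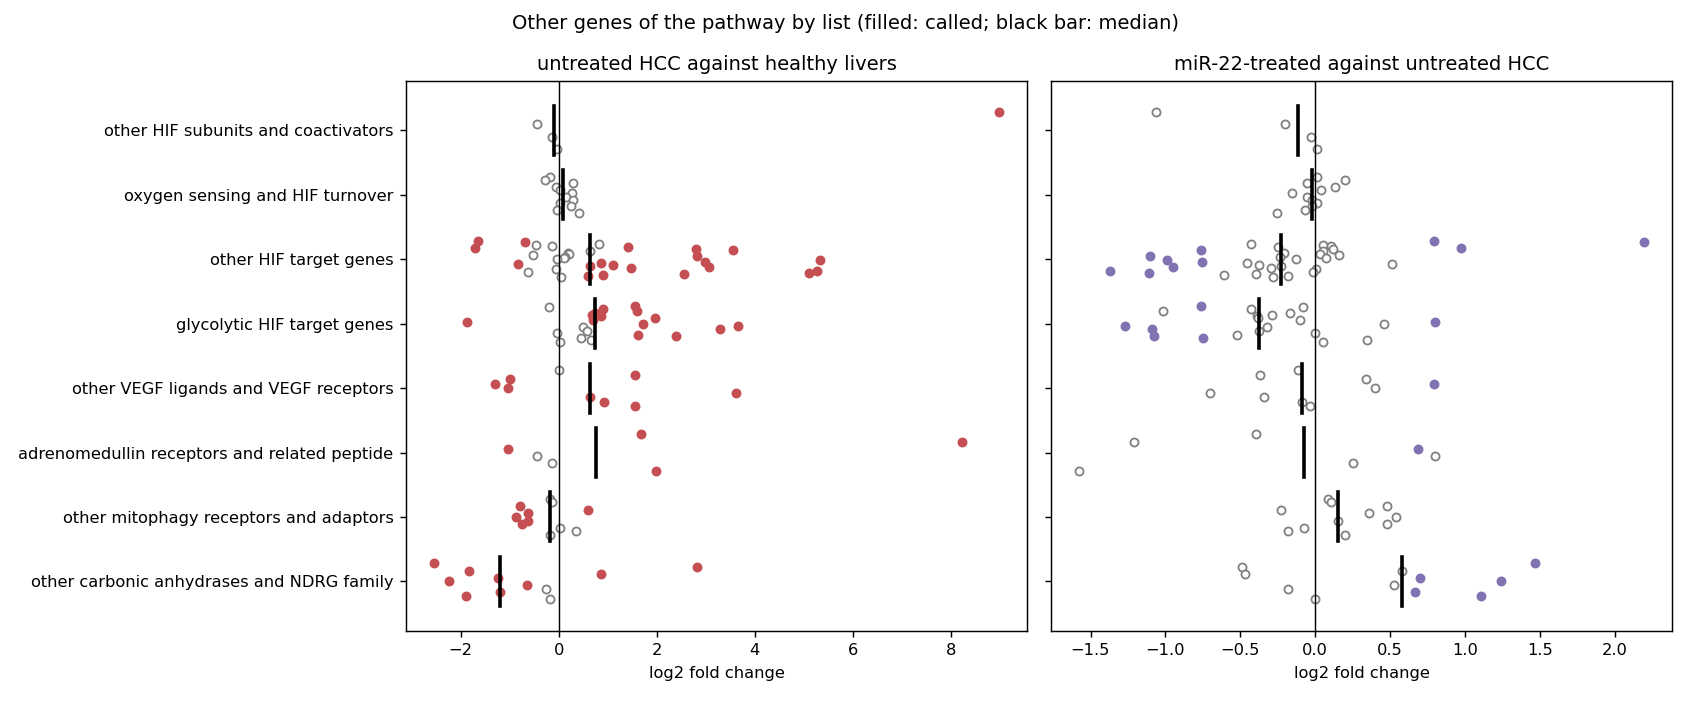
Log2 fold change (x axis) of the other genes of the pathway by list, in untreated HCC against healthy livers (left) and miR-22-treated against untreated HCC (right). Each point is a tested gene, filled where called, and the black bar is the list's median. HIF targets and glycolytic targets have medians of 0.63 and 0.74 on the left and −0.23 and −0.37 on the right, while genes of oxygen sensing and turnover stay near 0.

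Summed markers of several cell types of the liver differed between groups. Counts of called markers stand beside 22.7% higher and 18.1% lower among all genes in untreated HCC, and 8.32% and 5.47% with miR-22. For each list, the range of the summed CPM is given for healthy livers, then untreated HCC, then treated HCC. Hepatocyte markers (9 genes) ranged from 141000 to 145900, 57680 to 72690 and 86720 to 108200, the order also seen for Vegfa and Bnip3. Of them, 8 fell in untreated HCC and 4 rose with miR-22. Endothelial markers (11 genes) ranged from 398 to 477, 273 to 351 and 371 to 439, the order also seen for Epas1 and Calcrl. In untreated HCC, 1 endothelial marker rose and 4 fell, and with miR-22 only 1 was called, which rose. Pecam1 and Cdh5, which mark endothelium in general, had 30.4 and 39.7 CPM in healthy livers and 33.3 and 41.3 in untreated HCC. Biliary markers (6 genes) ranged from 29.5 to 42.1, 3340 to 6260 and 1568 to 2714, and had the order of Ndrg1. Spp1 alone had 26.8 CPM in healthy livers and 4620 in untreated HCC and so made up most of that sum. Of the 6, 5 rose in untreated HCC, among them Krt7 from 0.765 to 2.44, and Krt19 was not called (2.15 and 3.96, adjusted p = 0.151). With miR-22, 4 of the 6 fell. Stellate cell and fibroblast markers ranged from 362 to 433, 866 to 1002 and 729 to 826, the order also seen for Ndrg1 and the biliary markers. Of these 9 genes, 5 rose in untreated HCC, led by Col3a1 (43.7 to 403) and Col1a1 (5.78 to 192), while Lrat (42.1 to 15) and Dcn (152 to 99.7) fell, and Des and Reln were not called. Macrophage markers (9 genes) ranged from 482 to 534, 382 to 460 and 484 to 533, the same order as the endothelial markers and Epas1. Of them, 1 rose and 2 fell in untreated HCC, and 0 were called with miR-22. Neutrophil markers ranged from 1.7 to 4.46, 16.1 to 21.2 and 14.5 to 23.1, with Ly6g at or near 0. Lymphocyte markers ranged from 5.77 to 8.49, 7.4 to 10.9 and 7.53 to 11.0, and erythroid markers from 113 to 170, 233 to 325 and 212 to 239. The part of these cells in the results was not tested.

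**Figure D4:**
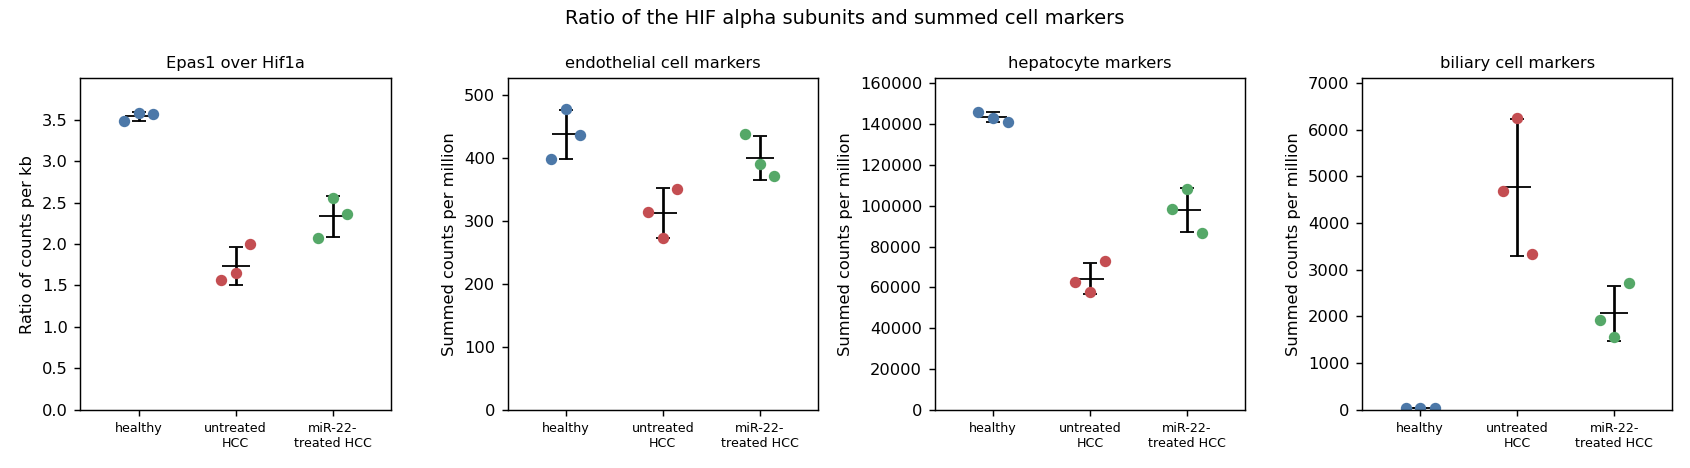
Ratio of Epas1 to Hif1a in counts per kb (first panel) and summed CPM of endothelial, hepatocyte and biliary markers (other panels), all from 0. Points are livers, and bars are the mean and SD of 3 livers per group. The ratio is 3.54 ± 0.055 in healthy livers, 1.74 ± 0.231 in untreated HCC and 2.33 ± 0.243 in treated HCC.

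Per kb of canonical transcript, the order of the 10 genes in untreated HCC was Vegfa (35.5 ± 4.57), Epas1 (26.1 ± 0.612), Bnip3 (20.8 ± 0.948), Hif1a (15.1 ± 1.61), Arnt (12.1 ± 0.562), Egln1 (10.9 ± 0.339), Ndrg1 (7.68 ± 0.901), Egln3 (7.4 ± 0.817), Adm (1.71 ± 0.162) and Car9 (0.225 ± 0.122), in CPM per kb. Ndrg1 and Egln3 did not differ beyond their spread. In healthy livers Bnip3 (69.3 ± 4.51) stood above Epas1 (35.8 ± 1.9), and Arnt (15.7 ± 0.979) stood above Hif1a (10.1 ± 0.403), and both pairs were in the reverse order in untreated HCC. In healthy livers, Hif1a and Egln1 (9.76 ± 0.754) did not differ beyond their spread.

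The genes most like 3 of the members across the 9 livers were sought by Pearson's r of log2 CPM among 15716 genes, as a description, since the livers share their 3 groups. For Hif1a these were Cd2ap (r = 0.992), Il33 (0.986) and Rock2 (0.985). For Epas1 they were Rhobtb1 (0.993), Uvrag (0.991) and 2410131K14Rik (0.983). For Egln3 they were Actg1 (0.991), Mmp14 (0.98) and Chd4 (0.977). Among the members, Epas1 ran with Bnip3 (r = 0.971) and against Egln3 (r = −0.941), and Hif1a ran against Vegfa (r = −0.967), over the same 9 livers.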

How the data were processed

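RNA of 9 mouse livers (3 per group) was sequenced in pairs from libraries that do not keep strand. Per the labels and the study's methods, reads were checked with FastQC 0.11.7 and quantified with Salmon on GRCm39, and the authors used DESeq2 1.18. The authors deposited whole-number counts per gene, neither normalized nor filtered, and these counts were used for every result. Values normalized by the authors were not used. The depth is the sum of the counts of a library.

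Intervals of fold changes come from the edgeR fit. The test was edgeR 4.0.16 under R 4.3.3, a two-sided quasi-likelihood test with TMM scaling and filterByExpr over all 9 libraries together. Genes were called at a Benjamini-Hochberg adjusted p under 0.05 over all 15717 tested genes and a fold change over 1.5. Groups came from the sample titles and treatment labels, and nothing states that livers of a group came from separate litters, so p-values measure the spread between these mice. The 10 members and the gene lists (181 symbols, all found, 1 by a synonym) were chosen with earlier results of these data known. Genes outside the members were named by a rule: in each list, the 2 called genes with the smallest p in each of the first 2 comparisons, and the 3 genes most correlated with Hif1a, Epas1 and Egln3. Vhl, Rack1, Egln2, Pecam1, Cdh5, Spp1, Krt7, Krt19, Col3a1, Col1a1, Lrat, Dcn, Des, Reln, Ly6g, Gm12454, Gm72687, Mxi1, Sqstm1, Ramp3, the genes that check the labels and the remaining members of counts of 5 or fewer were named after their values were seen. Positions and transcripts came from GENCODE M39 by gene ID, and counts per kb used the canonical transcript. Promoters and miR-22 came from RefSeq tables. Alternatives were DESeq2 1.42.0, limma-trend 3.58.1 (pseudocount 1), other scalings, no filter, at least 10 counts in every library, 2 groups only, the replicate number as a block, no fold threshold and each liver left out. On simulated counts for untreated HCC against healthy livers (15353 genes), edgeR found 86 of 101 genes changed 2-fold and 93 of 95 changed 4-fold, with 9 false calls. Only 196 genes changed there, up or down alike, and all genes had the same spread. In the data 6417 of 15717 genes were called, so these rates need not hold for the real comparison.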

Additional observations from a re-analysis of the deposited data

How the results depend on the processing

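Of the log2 fold changes of the members under the alternatives, 501 stayed on the same side of the thresholds with the same call, 25 gained a call and 9 lost it, and no called value changed sign. Without the fold threshold, 8 members (4 higher, 4 lower) were called in untreated HCC against healthy livers, 5 in miR-22-treated against untreated HCC and 5 in miR-22-treated HCC against healthy livers. Among all 15717 genes, 8838 were then called in untreated HCC against healthy livers (6417 with the threshold), 3777 in treated against untreated HCC (2167 with it) and 5732 in treated HCC against healthy livers (3772 with it). With each liver left out in turn, the number of genes called in treated against untreated HCC ran from 1433 (without miR-22-treated HCC replicate 3) to 2660. The called members then numbered 4 to 6 in the first comparison, 2 to 3 in the second and 2 to 3 in the third.

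Groups share replicate numbers in their titles, but same-numbered livers did not deviate together (r = −0.121, −0.131 and −0.235 between untreated and treated HCC). With 3 such pairs, it cannot be told whether same-numbered livers shared a step of handling. With the replicate block, 5, 2 and 2 members were called in the 3 comparisons, with Hif1a at 0.61 (adjusted p = 0.00243) passing and Adm at 0.78 (adjusted p = 0.115) lost in untreated HCC against healthy livers. Among all genes, 5863, 1745 and 3044 were called with the block.

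Of the pathway list counts, 415 stayed within 1.5 times the count with TMM scaling and 41 did not. These were 14 of adrenomedullin receptors and peptides, 12 of other HIF subunits, 4 of mitophagy receptors, 4 of VEGF ligands and receptors, 3 of oxygen sensing, 3 of carbonic anhydrases and NDRG genes and 1 of glycolytic targets. With library totals alone, the mitophagy list turned from 1 higher and 5 lower to 2 and 0 in untreated HCC against healthy livers. In treated against untreated HCC, the glycolytic targets went from 1 higher and 5 lower to 0 and 11, the VEGF and adrenomedullin lists each from 1 and 0 to 0 and 1, and the carbonic anhydrases and NDRG genes from 5 and 0 to 3 and 1.

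Low depth limits what can be read from Car9 (2 to 19 counts per library) and Adm (15 to 57), Car9 could not be fitted under the stricter count filter, and protein data were not used here.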
